A study of Mus musculus with 16 samples.

Results

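The 9 genes described here form the insulin-like growth factor (IGF) system as it was read in cultures of mouse bone marrow stromal cells (BMSCs): the ligands Igf1 and Igf2, the receptor Igf1r, the binding proteins Igfbp3, Igfbp4, Igfbp5, Igfbp6 and Igfbp7, and the protease Pappa. They were chosen by name, as 9 of the 32285 genes counted. Cells from the marrow of 12-week-old mice were cultured for 21 days with 10 mM bGP, a phosphate donor that lets the matrix mineralize, and single-cell RNA-Seq was then performed on sorted viable cells. All 4 genotypes carried floxed Fgf23 alleles (Fgf23 fl/fl). WT cultures were Dmp1+/+ without Cre, Fgf23cKO cultures were Dmp1+/+ with Dmp1-cre, Dmp1KO cultures were Dmp1-/- without Cre, and Dmp1KO/Fgf23cKO cultures were Dmp1-/- with Dmp1-cre. The Dmp1 promoter drives Cre in late osteoblasts and osteocytes, so the deletion of Fgf23 is aimed at those cells; in which cells it took place was not measured. The 3 cultures of a genotype carried tags of their own, but all 3 were pooled and run in 1 droplet reaction, so that reaction and genotype cannot be told apart in the comparisons below.

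IGF1 and IGF2 are secreted peptides that act on the receptor tyrosine kinase encoded by Igf1r and drive growth and survival, in bone above all of osteoblasts and their precursors. The IGF binding proteins hold the ligands in the extracellular space and mostly limit their access to the receptor, and the metalloprotease PAPP-A, encoded by Pappa, cleaves IGFBP4 and IGFBP5 and so frees the ligand. Macrophages are a known source of IGF1 in many tissues, and stromal cultures of whole marrow keep many macrophages.

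Positions are given on GRCm38 with the GENCODE M21 annotation. Igf1 (ENSMUSG00000020053) lies at chr10:87858265-87937042 on the plus strand and overlaps the antisense gene Igf1os. Igf2 (ENSMUSG00000048583) lies at chr7:142650766-142666816 on the minus strand, where exons of the protein-coding gene Gm49394 overlap it on the same strand, so its count is uncertain. Igf1r (ENSMUSG00000005533) lies at chr7:67952827-68233668, Igfbp4 (ENSMUSG00000017493) at chr11:99041244-99054392, Igfbp6 (ENSMUSG00000023046) at chr15:102144362-102149511 and Pappa (ENSMUSG00000028370) at chr4:65124174-65357509, all on the plus strand. Igfbp3 (ENSMUSG00000020427) at chr11:7206086-7213923, Igfbp5 (ENSMUSG00000026185) at chr1:72857932-72874884 and Igfbp7 (ENSMUSG00000036256) at chr5:77349240-77408041 lie on the minus strand, and exons of Polr2b on the other strand overlap Igfbp7. These spans cover exons, introns and untranslated regions.

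In all, 17793 cells of 15 samples were analysed, of which 14577 came from 11 tagged cultures: 3 of WT, 3 of Fgf23cKO, 3 of Dmp1KO/Fgf23cKO and 2 of Dmp1KO (cultures 2 and 3, since culture 1 was not used here). Tagged cultures held 470 to 2825 cells and 9518928 to 72482185 UMIs (unique molecular identifiers, counts of RNA molecules). WT cells were the shallowest, with medians of 7137 to 7275.5 UMIs per cell against 20016.5 to 34988 in the other genotypes. The share of cells with over 20% mitochondrial UMIs was 16.3 to 16.6% in Fgf23cKO and 12.2 to 14.5% in Dmp1KO/Fgf23cKO cultures, and 3.40 to 7.28% in the other cultures. No cell barcode was shared by samples of the same genotype, and 35 of 17758 were shared between genotypes. The targeted gene Dmp1 was at 0 and 3 UMIs in the Dmp1KO cultures and at 1.32 to 2.16 CPM (UMIs of a gene scaled to a fixed total of all UMIs) in Dmp1KO/Fgf23cKO cultures, against 27.3 to 108 CPM in WT and 7.55 to 65.0 CPM in Fgf23cKO cultures. Fgf23 had 0 to 8 UMIs per culture, too few to check its deletion. Although the cultures are labelled BMSCs, most cells carried macrophage markers, whose summed level was 34400 to 42170 CPM in whole cultures.

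Cells fell into 20 clusters, which were grouped by markers without use of the IGF genes. Macrophage-like cells are clusters 0, 1, 7 and 19. Clusters 2, 3, 4 and 9 express macrophage markers but were not named macrophage-like, and they are called other macrophage marker clusters. Cluster 2 was led by Cd74 and H2-Ab1 and cluster 3 by Itgax and Mmp12. Cluster 4 was led by Fbxo32 and Atp6v0d2 and cluster 9 by Fgf13 and Pcdh7. Monocyte or dendritic cell markers had the highest mean scaled marker score in clusters 2 and 3 (0.987 and 0.403), but that list was given no class. Osteoclast markers scored highest in cluster 4 (0.187) and macrophage markers in cluster 9 (0.478). The stromal classes are osteoprogenitor-like cells (cluster 8, led by Tagln and Cald1), pre-osteoblast 1-like cells (cluster 13, led by Ebf1 and Col3a1) and osteoblast/osteocyte-like cells (clusters 14 and 16, led by Ibsp, Col1a1 and Bglap). The macrophage-like class is not made of the same clusters in each genotype. Of all cells in macrophage marker clusters, cluster 1 held 77.2 to 83.3% in WT cultures and at most 2.37% elsewhere, while cluster 0 held 80.5 to 85.2% in Dmp1KO/Fgf23cKO, 48.4 to 77.8% in Fgf23cKO, 12.8 and 21.8% in Dmp1KO and 1.15 to 1.66% in WT cultures.

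The ligand, the receptor and the binding proteins were divided between macrophages and stroma. Igf1 UMIs came almost entirely from cells with macrophage markers, those of Pappa, Igfbp7, Igfbp5 and Igf2 from stromal cells and cluster 18, and Igfbp4 from both sides. Levels below are CPM of a class in each tagged culture, as mean ± SD over the cultures with at least 10 cells of the class (n = 11 unless given). Classes were made from these same cells, so differences between classes are described without a test.

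**Figure D1:**
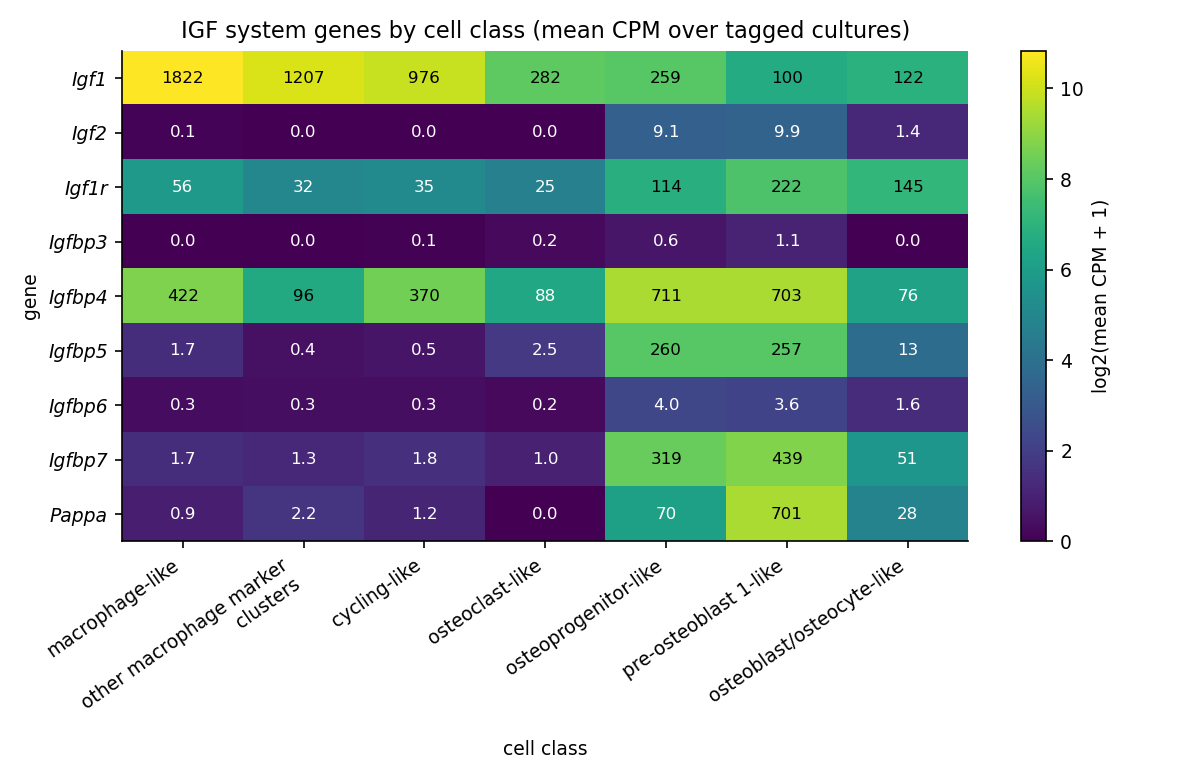
Mean level of each gene (rows) in 7 cell classes (columns). Colour is log2(mean CPM + 1) over tagged cultures and the printed numbers are mean CPM; rows should be read across and not against each other, since 3′ counts of different genes are not on a common scale. Igf1 was highest in macrophage-like cells (1822 CPM), Pappa in pre-osteoblast 1-like cells (701 CPM), and Igfbp4 was high in both.

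Igf1 stood at 1822 ± 202 CPM in macrophage-like cells, at 1207 ± 124 CPM in the other macrophage marker clusters and at 976 ± 139 CPM in cycling-like cells. It was at 282 ± 60.5 CPM in osteoclast-like cells (n = 4), 259 ± 180.3 CPM in osteoprogenitor-like cells, 122 ± 54.8 CPM in osteoblast/osteocyte-like cells (n = 7) and 100.2 ± 40.2 CPM in pre-osteoblast 1-like cells. The cultures of the first 3 classes (lowest 777 CPM) did not overlap with those of the stromal classes (highest 606 CPM), whereas the stromal classes overlapped with each other. Of 422392 Igf1 UMIs in tagged cultures, 51.4% lay in macrophage-like cells, 34.3% in the other macrophage marker clusters, 11.1% in cycling-like cells and 0.492% in pre-osteoblast 1-like cells. These shares are pooled over cultures and differ by genotype: macrophage-like cells held 84.2% of Igf1 UMIs in WT, 65.3% in Fgf23cKO, 81.8% in Dmp1KO/Fgf23cKO and 14.8% in Dmp1KO (means over cultures), and the other macrophage marker clusters 0.947, 17.6, 9.68 and 68.1%. RNA set free from lysed cells gives UMIs in cells that do not express a gene, so the stromal level of Igf1 was set beside that of the macrophage markers. Igf1 in pre-osteoblast 1-like cells was 0.042 to 0.070 of its level in macrophage-like cells, and the median of 18 or 19 macrophage markers was 0.0529 to 0.0653. In osteoprogenitor-like cells the ratio was 0.070 to 0.251 for Igf1 against medians of 0.123 to 0.283. In both classes Igf1 lay within the range of the macrophage markers of each genotype. Low stromal expression and free RNA cannot be told apart in these values, so the stromal level of Igf1 is not read as stromal expression.

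Igf2 was sparse. Only 277 UMIs were counted in tagged cultures, 78.7% of them in pre-osteoblast 1-like, 9.75% in osteoprogenitor-like and 7.58% in osteoblast/osteocyte-like cells, and 8 in macrophage-like cells. The level in pre-osteoblast 1-like cells was 9.94 ± 15.3 CPM, a spread larger than the mean. Single cells carried much of it: in Fgf23cKO culture 2, 73 of the 99 UMIs of this class lay in 1 cell, and in Dmp1KO culture 3, 35 of 47.

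Igf1r was detected on both sides of the culture and was higher in stroma. It stood at 222 ± 28.0 CPM in pre-osteoblast 1-like, 145 ± 48.3 CPM in osteoblast/osteocyte-like (n = 7) and 114 ± 34.2 CPM in osteoprogenitor-like cells, against 56.5 ± 10.5 CPM in macrophage-like cells, 35.3 ± 7.93 CPM in cycling-like cells and 31.8 ± 15.1 CPM in the other macrophage marker clusters. The lowest pre-osteoblast 1-like culture (182.5 CPM) lay above the highest macrophage-like culture (73.0 CPM). Because macrophages were so many, macrophage-like cells still held 33.0% of Igf1r UMIs and the other macrophage marker clusters 22.0%, against 23.4% in pre-osteoblast 1-like and 8.50% in osteoblast/osteocyte-like cells. With each cell thinned to 1300 UMIs, 22.5% of pre-osteoblast 1-like cells had an Igf1r UMI against 6.68% of macrophage-like cells (unthinned 96.4 and 43.2%).

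**Figure D2:**
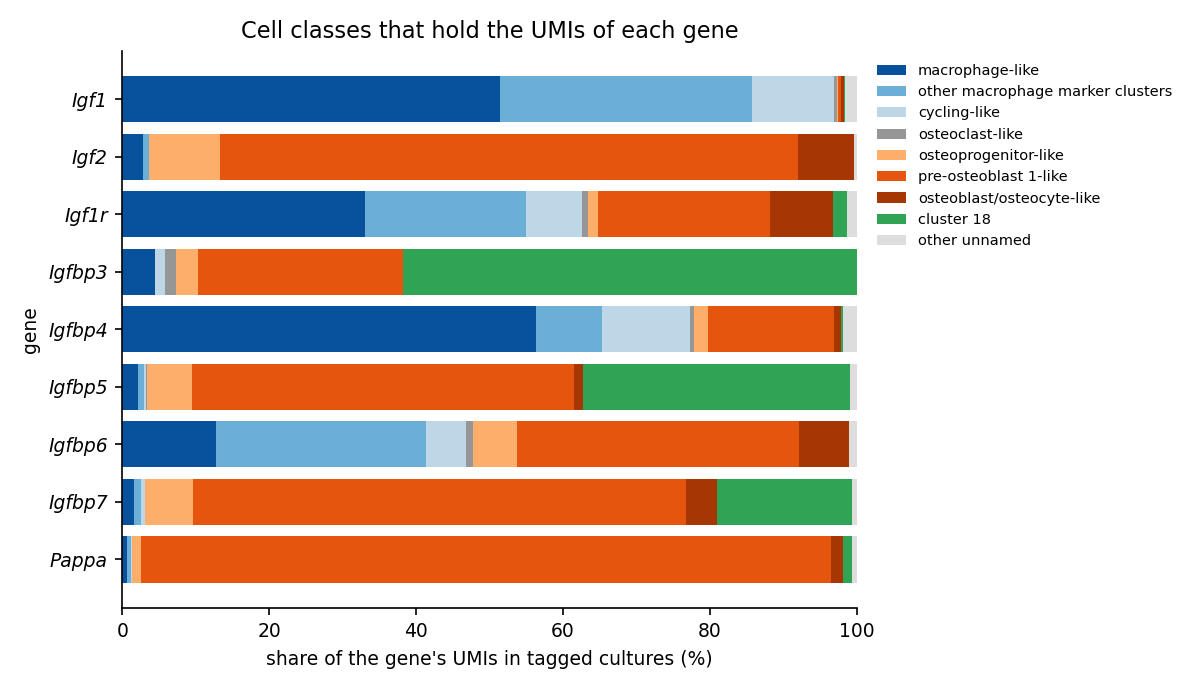
Share of the UMIs of each gene (percent, bars sum to 100) held by each class in the tagged cultures. Macrophage classes (blue) hold most Igf1 and Igfbp4, pre-osteoblast 1-like cells (orange) hold most Pappa, Igfbp7, Igf2 and Igfbp5, and cluster 18 (green) holds 36.4% of Igfbp5 and 61.8% of the 68 Igfbp3 UMIs. Bars pool all genotypes, whose shares differ.

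Igfbp4, the binding protein that PAPP-A cleaves best when it carries an IGF, was the only member with a high level on both sides. It stood at 711 ± 441 CPM in osteoprogenitor-like and 703 ± 261 CPM in pre-osteoblast 1-like cells, at 422 ± 31.4 CPM in macrophage-like and 369.6 ± 145 CPM in cycling-like cells, and at 95.8 ± 33.7 CPM in the other macrophage marker clusters, 87.5 ± 19.7 CPM in osteoclast-like cells (n = 4) and 75.6 ± 30.6 CPM in osteoblast/osteocyte-like cells (n = 7). The stromal and macrophage-like ranges overlapped. Macrophage-like cells held 56.4% of its 87197 UMIs and pre-osteoblast 1-like cells 17.2%. The level in macrophage-like cells was 0.947 (WT), 0.968 (Fgf23cKO), 1.007 (Dmp1KO) and 0.703 (Dmp1KO/Fgf23cKO) of that in the summed stromal classes, whereas the median of 19 or 20 stromal markers was 0.0026 to 0.0081 and their highest 0.0424. Igfbp4 in macrophage-like cells thus lay far above the level at which stromal markers were found there.

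**Figure D3:**
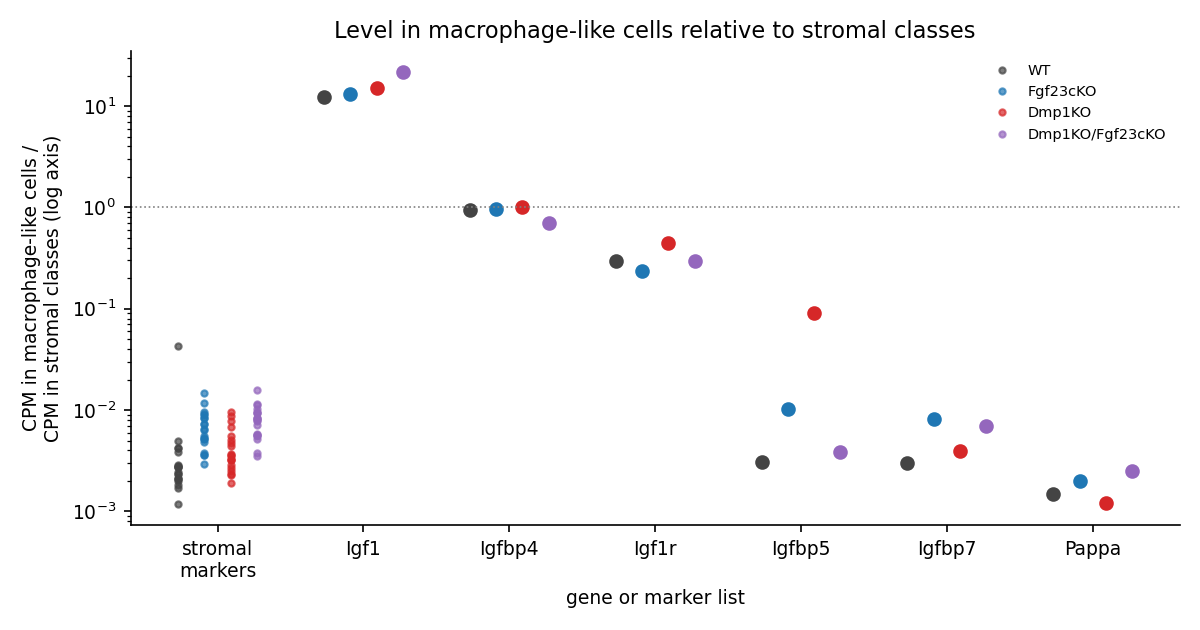
Level in macrophage-like cells divided by the level in the stromal classes (log axis), per genotype. Each small point is a stromal marker and each large point a member; the dotted line marks equal levels. Igf1 lies at 12.4 to 21.6, Igfbp4 at 0.703 to 1.007 and Igf1r at 0.237 to 0.443, while Igfbp7 lies among the stromal markers in each genotype and Pappa below all of them except in WT.

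Igfbp7, which binds IGFs weakly and is laid down in matrix, stood at 439 ± 130 CPM in pre-osteoblast 1-like and 319 ± 130.3 CPM in osteoprogenitor-like cells, at 51.0 ± 38.9 CPM in osteoblast/osteocyte-like cells (n = 7) and at 1.70 ± 0.825 CPM in macrophage-like cells. Pappa was almost confined to pre-osteoblast 1-like cells, which held 93.9% of its 17084 UMIs at 701 ± 232 CPM; no other named class exceeded 70.2 ± 38.4 CPM, the level in osteoprogenitor-like cells. In macrophage-like cells Pappa stood at 0.854 ± 0.506 CPM. In macrophage-like cells Igfbp7 was at 0.0030 to 0.0082 of its stromal level, within the range of the stromal markers of each genotype. Pappa was at 0.0012 to 0.0025, below every stromal marker in Fgf23cKO, Dmp1KO and Dmp1KO/Fgf23cKO (lowest 0.0029, 0.0019 and 0.0035) and within their range in WT. The ligand Igf1 and the protease Pappa were thus counted mostly in different cells.

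Igfbp5, a binding protein abundant in bone matrix and also a PAPP-A substrate, stood at 259.6 ± 302 CPM in osteoprogenitor-like and 257 ± 256 CPM in pre-osteoblast 1-like cells, with SDs as large as the means, and at 1.69 ± 3.03 CPM in macrophage-like cells. A further 36.4% of its 7868 UMIs came from cluster 18, a small unnamed cluster of 114 cells led by Csmd1, Tenm3, Apod and Epha5. Acan was also among its leading genes. Chondrocyte markers had the highest mean scaled marker score in it (1.29, with 3 markers detected), but that list was given no class. Cluster 18 held 69 WT, 43 Fgf23cKO, 2 Dmp1KO/Fgf23cKO and 0 Dmp1KO cells, untagged cells included. It held 34.6% of Igfbp5 UMIs in WT, 58.8% in Fgf23cKO, 21.3% in Dmp1KO/Fgf23cKO and 0% in Dmp1KO (means over cultures), against 52.6, 36.8, 69.8 and 45.1% in pre-osteoblast 1-like cells. Its Igfbp5 level was 1612 CPM (7 cells), 899.7 CPM (14 cells) and 2044 CPM (32 cells) in WT cultures 1 to 3 and 987.5 CPM (6 cells), 1219 CPM (7 cells) and 1029 CPM (24 cells) in Fgf23cKO cultures 1 to 3. Igfbp7 there was 545 to 879.5 CPM in WT and 639 to 1644 CPM in Fgf23cKO cultures. None of the tagged Dmp1KO cells was in this cluster, 0 of 5601, which allows a share of up to 0.0536% (counting error only).

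Igfbp3 and Igfbp6 were near the limit of the data. Igfbp3, the main carrier of IGF1 in serum, had 68 UMIs in tagged cultures, 42 of them in cluster 18 and 23 of these in 1 cell of WT culture 3. Igfbp6, which prefers IGF2, had 203 UMIs, spread over pre-osteoblast 1-like cells (38.4%), the other macrophage marker clusters (28.6%, where 50 of the 58 UMIs came from Dmp1KO) and macrophage-like cells (12.8%), and its mean level stayed at or below 4.0 CPM in every named class.

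Among macrophage clusters, Igfbp4 varied over a wider range than Igf1. Clusters 3 and 4 had the lowest means of both genes. Igfbp4 was high in cluster 0 (452 ± 42.9 CPM, n = 11) and in cluster 1 (525 ± 12.6 CPM, n = 3, WT only), lower in cluster 2 (154 ± 41.0 CPM, n = 11) and cluster 9 (104.5 ± 36.6 CPM, n = 4), and lowest in cluster 7 (51.7 ± 18.1 CPM, n = 11), cluster 3 (34.5 ± 16.5 CPM, n = 3) and cluster 4 (26.9 ± 7.95 CPM, n = 8). Mean Igf1 over the same cultures ran from 792 CPM in cluster 4 to 1961 CPM in cluster 0, and cluster 9, low in Igfbp4, had 1783 CPM of Igf1 in Dmp1KO beside 1992 CPM in cluster 0 of that genotype. Thinned to 1300 UMIs per cell, 40.6% of cells in cluster 0 and 45.2% in cluster 1 had an Igfbp4 UMI, against 17.3% in cluster 2 and 2.83 to 10.4% in clusters 3, 4, 7 and 9.

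**Figure D4:**
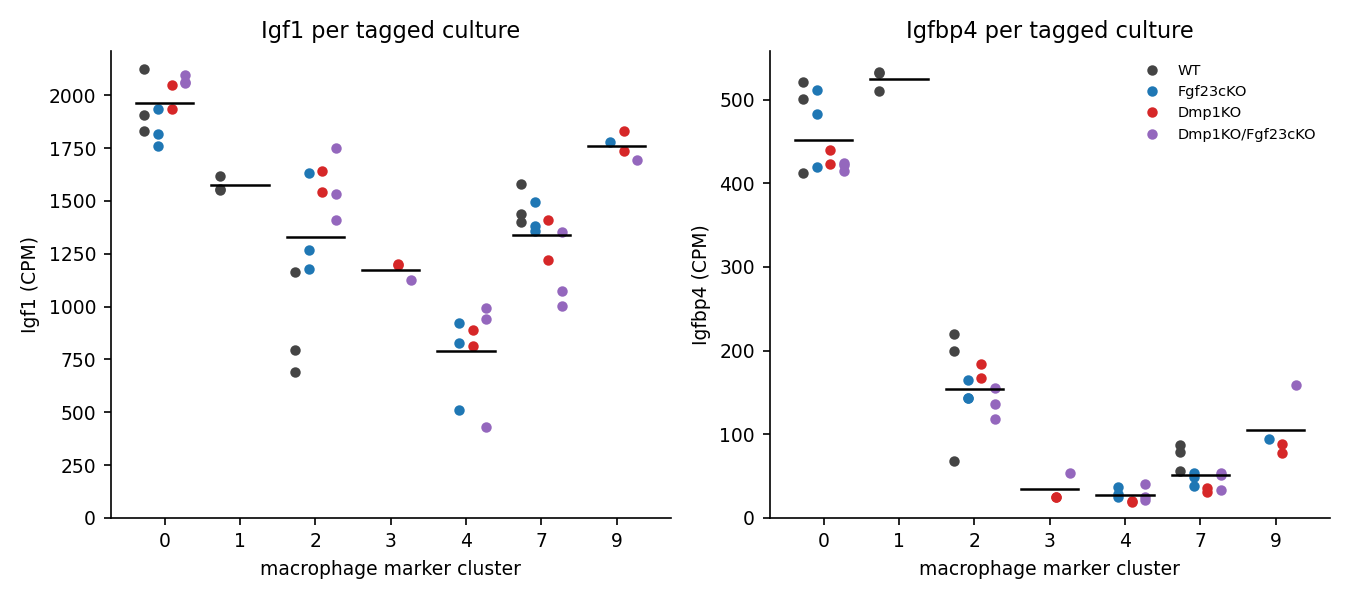
Igf1 (left) and Igfbp4 (right) in each macrophage marker cluster, in CPM; each point is a tagged culture with at least 10 cells of the cluster, coloured by genotype, and the bar is the mean. Igfbp4 is at least 412 CPM in clusters 0 and 1 and at most 220.2 CPM in the other clusters, while Igf1 is at least 429 CPM in all of them.

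In whole cultures, where all cells of a culture were summed, Dmp1KO had less Igfbp4 and Igfbp5 than WT. Dmp1KO was also called lower for Igfbp3, on 3 UMIs against 39 in WT, 32 of these in cluster 18. Its calls for less Igfbp7 and slightly more Igf1 were lost without Dmp1KO culture 2 or WT culture 1 and without TMM factors, respectively. Fgf23cKO cultures had more Pappa, and the calls for more Igfbp7 and Igf2 and less Igfbp4 did not survive the loss of single cultures. Dmp1KO/Fgf23cKO cultures had more Pappa and Igf1, and Igfbp4 near that of WT, while their calls for less Igfbp5 and Igfbp3 and more Igfbp7 and Igf1r were each lost without single cultures. All p values below are adjusted over all genes tested (edgeR quasi-likelihood test, called under 0.1), and log2 fold changes are given ± SE. A whole-culture level moves with the share of each cell class, and fewer cells of a type and less RNA per cell cannot be told apart in it. Genotypes differed at a large share of all genes: 64.5% of 15502 genes passed for Dmp1KO compared with WT (32.5% higher and 32% lower), and 5 of the 9 members (1 higher, 4 lower). For Fgf23cKO compared with WT the members called were 4 of 9 (3 higher, 1 lower) against 45.1% of all genes (21.7% higher, 23.4% lower). For Dmp1KO/Fgf23cKO compared with WT they were 6 of 9 (4 higher, 2 lower) against 51.8% (24.5% higher, 27.4% lower), and compared with Dmp1KO 6 of 9 (5 higher, 1 lower) against 62.7% (27.2% higher, 35.5% lower). The interaction asks whether the difference between genotypes with and without Dmp1-cre was the same in Dmp1-/- as in Dmp1+/+ cultures. It was called for 2 of 9 members, both positive, against 55.4% of genes (25.6% positive, 29.8% negative).

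Whole-culture Igf1 was 1118, 1292 and 1144 CPM in WT cultures 1 to 3, 1111, 1277 and 1148 CPM in Fgf23cKO, 1284 and 1322 CPM in Dmp1KO and 1550, 1420 and 1439 CPM in Dmp1KO/Fgf23cKO cultures. The Dmp1KO/Fgf23cKO cultures lay above all others, whereas WT overlapped with Fgf23cKO and, at 1292 CPM in culture 2, with Dmp1KO. Igf1 was higher in Dmp1KO (log2 fold change 0.44 ± 0.08, adjusted p = 0.00106) and in Dmp1KO/Fgf23cKO (0.25 ± 0.07, adjusted p = 0.0202) than in WT. The first depends on scaling: TMM factors move the median member by 0.30 between Dmp1KO and WT and by 0.359 between Dmp1KO/Fgf23cKO and Dmp1KO. Without them the Dmp1KO change was 0.14 (adjusted p = 0.141), and the difference between Dmp1KO/Fgf23cKO and Dmp1KO turned from -0.19 ± 0.08 (adjusted p = 0.0721) to 0.17 (adjusted p = 0.0737). The latter call was also lost without Dmp1KO culture 2 or 3 or Dmp1KO/Fgf23cKO culture 2 or 3 (-0.22 to -0.17), and the Igf1 interaction of -0.14 ± 0.11 (adjusted p = 0.323) passed without WT culture 2 (-0.24).

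Igf2 in whole cultures came to 3, 0 and 15 UMIs in WT, 44, 105 and 7 in Fgf23cKO, 10 and 51 in Dmp1KO and 11, 18 and 13 in Dmp1KO/Fgf23cKO cultures. These counts overlap, and the call in Fgf23cKO compared with WT (2.65 ± 1.11, adjusted p = 0.0877) was lost without Fgf23cKO culture 2 (1.53, adjusted p = 0.328) and without any of 6 other cultures, and was 4.41 without WT culture 3 (adjusted p = 0.0647). The Igf2 interaction (-2.88 ± 1.58, adjusted p = 0.157) passed without Fgf23cKO culture 3 (-3.41) or WT culture 3 (-4.65). For this ligand, the depth does not allow a statement on genotype.

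Igf1r in whole cultures was 64.4, 56.3 and 67.0 CPM in WT, 74.5, 74.8 and 53.2 CPM in Fgf23cKO, 44.5 and 52.7 CPM in Dmp1KO and 80.6, 80.8 and 84.9 CPM in Dmp1KO/Fgf23cKO cultures. The last group lay above all others. It was higher than WT (0.33 ± 0.12, adjusted p = 0.0411, lost without Dmp1KO/Fgf23cKO culture 3 at 0.31 or WT culture 2 at 0.27) and than Dmp1KO (0.39 ± 0.13, adjusted p = 0.0235, lost without Dmp1KO culture 2 at 0.28). Without TMM factors, Igf1r was also lower in Dmp1KO than in WT (-0.36, adjusted p = 0.0411, against -0.06 with them). The Igf1r value of 0.07 in Fgf23cKO compared with WT rose to 0.21 and passed without Fgf23cKO culture 3, and the interaction of 0.33 ± 0.17 passed without Fgf23cKO culture 1 or 2 (0.40 and 0.41).

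Igfbp4 showed the clearest difference of the 9 genes in whole cultures. It was 415, 421 and 407 CPM in WT, 329, 415 and 275 CPM in Fgf23cKO, 101 and 139 CPM in Dmp1KO and 399.8, 392 and 393 CPM in Dmp1KO/Fgf23cKO cultures. The 2 Dmp1KO cultures lay far below all others. Igfbp4 was lower in Dmp1KO than in WT (-1.49 ± 0.15, adjusted p = 1.72e-05) and higher in Dmp1KO/Fgf23cKO than in Dmp1KO (1.36 ± 0.15, adjusted p = 4.24e-05), and the interaction was 1.69 ± 0.20 (adjusted p = 7.19e-05). The cell mix moved with it: clusters 2, 3, 4 and 9, with little Igfbp4, held 69.6 and 64.7% of UMIs in the Dmp1KO cultures, 0.915 to 1.14% in WT, 11.8 to 28.2% in Fgf23cKO and 10.3 to 13.0% in Dmp1KO/Fgf23cKO cultures. Within cluster 0, Igfbp4 was 478 ± 58.2 CPM in WT, 471 ± 46.9 CPM in Fgf23cKO, 431 ± 11.5 CPM in Dmp1KO and 420.2 ± 5.13 CPM in Dmp1KO/Fgf23cKO. The fitted log2 fold change there was 0.05 in Dmp1KO compared with WT, but cluster 0 held only 12 to 18 cells per WT culture. The same comparison gave -0.31 in macrophage-like cells without cluster 7 and -1.28 in cluster 7. In the cycling-like clusters 10 and 11, mean Igfbp4 was 95.3 and 106 CPM in Dmp1KO and 366 to 511 CPM in the other genotypes, which was not tested. The lower Igfbp4 of Fgf23cKO compared with WT (-0.33 ± 0.13, adjusted p = 0.0720) was lost without Fgf23cKO culture 1 or 3 or any WT culture (-0.35 to -0.20) and was -0.50 without Fgf23cKO culture 2.

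Igfbp5 was 70.4, 42.3 and 45.0 CPM in WT, 56.6, 36.0 and 60.3 CPM in Fgf23cKO, 2.08 and 6.39 CPM in Dmp1KO and 19.2, 33.6 and 25.1 CPM in Dmp1KO/Fgf23cKO cultures. WT and Fgf23cKO overlapped, Dmp1KO/Fgf23cKO lay between them and Dmp1KO, and no Dmp1KO culture reached any other culture. Igfbp5 was lower than WT in Dmp1KO (-3.34 ± 0.45, adjusted p = 0.000122) and in Dmp1KO/Fgf23cKO (-1.06 ± 0.35, adjusted p = 0.0333, lost without Dmp1KO/Fgf23cKO culture 1 at -0.87 or WT culture 1 at -0.83). It was higher in Dmp1KO/Fgf23cKO than in Dmp1KO (2.28 ± 0.44, adjusted p = 0.00139), with an interaction of 2.34 ± 0.55 (adjusted p = 0.00559). Beside this stand the cells of cluster 18, counted above, and the pre-osteoblast 1-like share of UMIs, which was 2.35 and 3.78% in Dmp1KO cultures, 2.82 to 7.55% in WT, 7.64 to 13.4% in Fgf23cKO and 9.60 to 11.9% in Dmp1KO/Fgf23cKO cultures. Their part in the whole-culture levels of the stromal members was not tested.

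Pappa in whole cultures was 44.0, 13.1 and 31.5 CPM in WT, 65.1, 107 and 56.6 CPM in Fgf23cKO, 22.4 and 27.0 CPM in Dmp1KO and 82.8, 87.1 and 132 CPM in Dmp1KO/Fgf23cKO cultures. Every culture with Dmp1-cre lay above every culture without it. Compared with WT, Pappa was higher in Fgf23cKO (1.36 ± 0.37, adjusted p = 0.0170) and in Dmp1KO/Fgf23cKO (1.74 ± 0.37, adjusted p = 0.00381), and it was higher in Dmp1KO/Fgf23cKO than in Dmp1KO (1.66 ± 0.41, adjusted p = 0.00596), whereas Dmp1KO was at 0.08 ± 0.41 from WT. The pre-osteoblast 1-like share of UMIs given above also separated cultures with Dmp1-cre (at least 7.64%) from those without (at most 7.55%).

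Igfbp7 in whole cultures was 59.8, 25.8 and 29.7 CPM in WT, 58.9, 84.2 and 76.1 CPM in Fgf23cKO, 8.46 and 19.3 CPM in Dmp1KO and 61.7, 56.7 and 111 CPM in Dmp1KO/Fgf23cKO cultures. The Dmp1KO cultures lay below all others, and WT culture 1 overlapped with both Cre genotypes. Igfbp7 was higher in Dmp1KO/Fgf23cKO than in Dmp1KO (2.10 ± 0.44, adjusted p = 0.00225). The 3 calls against WT each rested on single cultures: -1.14 ± 0.43 in Dmp1KO (adjusted p = 0.0438; -0.64 without Dmp1KO culture 2 and -0.73 without WT culture 1, both lost, and -1.77 without Dmp1KO culture 3), 0.92 ± 0.38 in Fgf23cKO (adjusted p = 0.0814; lost without Fgf23cKO culture 2 or 3 or WT culture 2 or 3, 0.72 to 0.89) and 0.96 ± 0.38 in Dmp1KO/Fgf23cKO (adjusted p = 0.0614; lost without Dmp1KO/Fgf23cKO culture 3 at 0.60 or WT culture 2 or 3 at 0.75 and 0.81). The Igfbp7 interaction (1.18 ± 0.56, adjusted p = 0.107) passed without Dmp1KO culture 3 (1.81), Dmp1KO/Fgf23cKO culture 2 (1.36) or WT culture 2 (1.37). Igfbp3, with 1, 11 and 27 UMIs in WT, 12, 3 and 0 in Fgf23cKO, 1 and 2 in Dmp1KO and 7, 2 and 2 in Dmp1KO/Fgf23cKO cultures, was called lower than WT in Dmp1KO (-4.77 ± 1.27, adjusted p = 0.00852) and in Dmp1KO/Fgf23cKO (-2.80 ± 0.99, adjusted p = 0.0415, lost without Dmp1KO/Fgf23cKO culture 2 at -2.48 or WT culture 3 at -1.82). In Fgf23cKO compared with WT Igfbp3 passed without Fgf23cKO culture 1 (-3.42) or WT culture 1 (-2.23), and so did the interaction (5.40 and 4.21), where the full sets gave -1.79 and 3.75. Igfbp6, with 5 to 38 UMIs per culture, was called in no comparison.

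**Figure D5:**
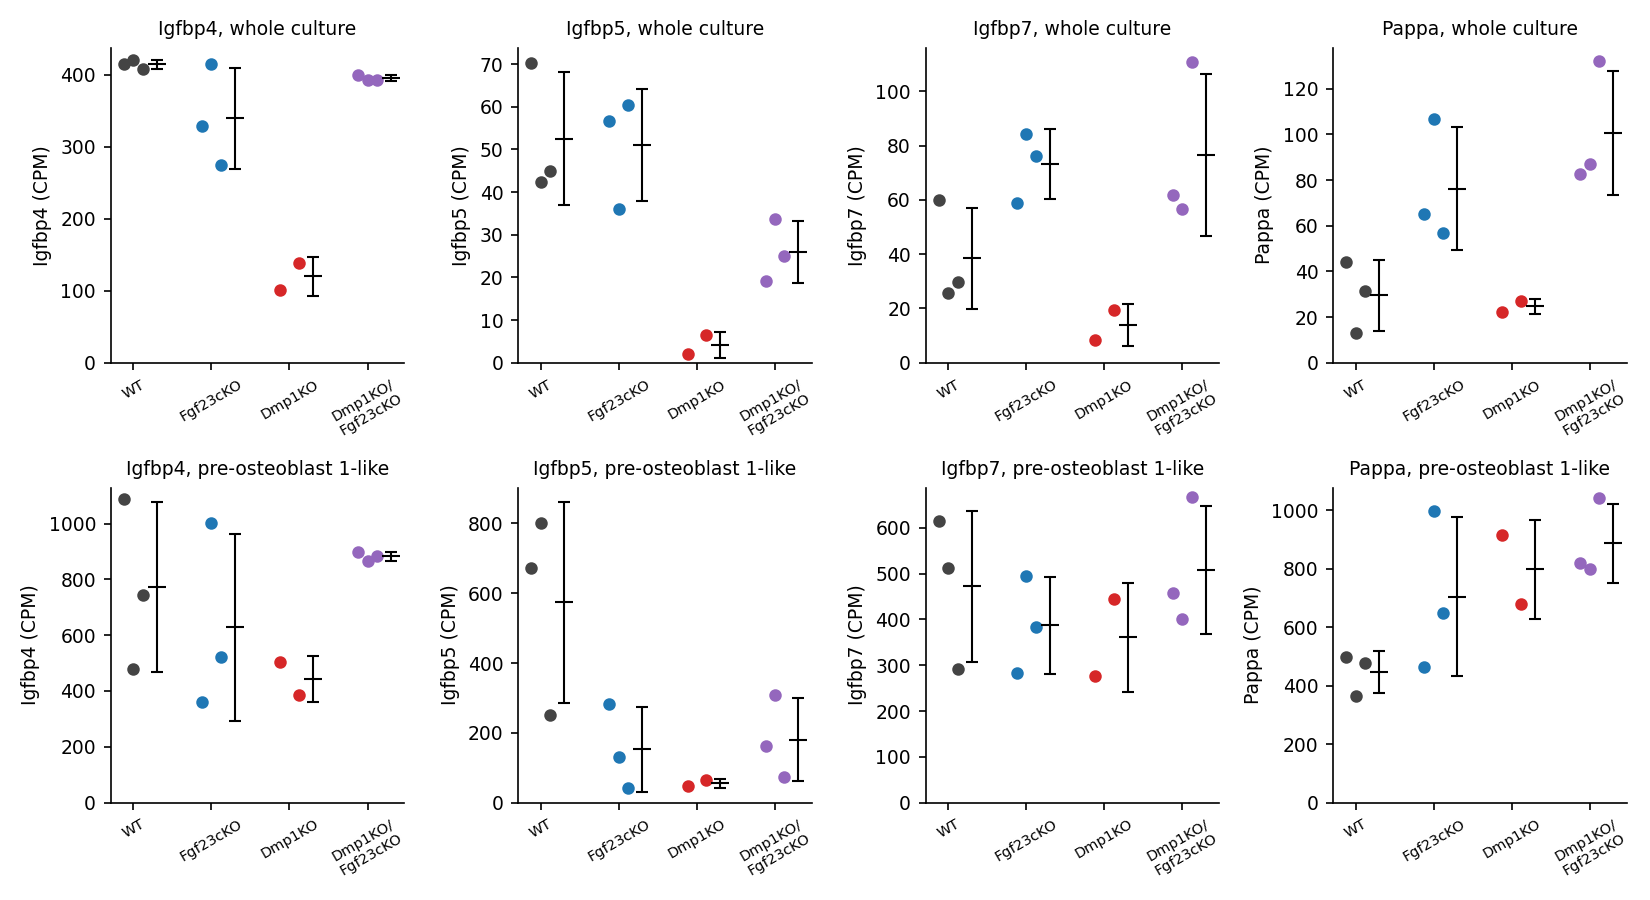
Igfbp4, Igfbp5, Igfbp7 and Pappa in whole cultures (top) and in pre-osteoblast 1-like cells (bottom), in CPM, by genotype; each point is a tagged culture, and the line with caps is the mean ± SD (n = 3, Dmp1KO n = 2). In whole cultures Dmp1KO is lowest for Igfbp4, Igfbp5 and Igfbp7, and within pre-osteoblast 1-like cells all WT cultures lie above both Dmp1KO cultures for Igfbp5.

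Within macrophage-like cells Igf1 was higher than in WT in each of the other genotypes, and Igf1r was higher in both Dmp1-null genotypes. These calls depended on the clusters summed. Over all macrophage marker clusters, only Igf1 in Dmp1KO/Fgf23cKO stayed higher than WT. Igf1 in cluster 7 and Igf1r in cluster 0 had the other sign. The class is made of different clusters: in WT most of its cells are cluster 1, and cluster 7, low in Igfbp4, holds 14.2 to 19.3% of cells in macrophage marker clusters, while in the other genotypes cluster 0 is the largest part. The part of this mix in the differences was not tested. Of 6 members tested, 3 were higher in Dmp1KO than in WT (51.2% of 12601 genes called, 26.2% higher and 24.9% lower), 3 were higher in Fgf23cKO (48.1% called, 24.7% higher and 23.4% lower), and 4 were higher and 1 lower in Dmp1KO/Fgf23cKO (59% called, 30.3% higher and 28.7% lower). Between Dmp1KO/Fgf23cKO and Dmp1KO 2 were lower (24.3% called, 11.4% higher and 13% lower), and 1 was called in the interaction, with a negative value (36.6% called, 17.6% positive and 19% negative).

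Macrophage-like Igf1 was 1578, 1562 and 1547 CPM in WT, 1764, 1896 and 1690 CPM in Fgf23cKO, 1888 and 1994 CPM in Dmp1KO and 2068, 2032 and 2021 CPM in Dmp1KO/Fgf23cKO cultures. WT did not overlap with any other genotype. The log2 fold changes compared with WT were 0.28 ± 0.05 in Dmp1KO (adjusted p = 0.000112), 0.15 ± 0.04 in Fgf23cKO (adjusted p = 0.0104; 0.09 and still called without Fgf23cKO culture 2) and 0.33 ± 0.04 in Dmp1KO/Fgf23cKO (adjusted p = 3.57e-06). Within cluster 0 they were 0.22 (adjusted p = 0.116), 0.10 (adjusted p = 0.547) and 0.26 (adjusted p = 0.0468), from 12 to 18 WT cells per culture, and within cluster 7 they had the other sign, at -0.28, -0.18 and -0.49, of which the last passed (adjusted p = 0.00853). Over all macrophage marker clusters the Dmp1KO and Fgf23cKO values were 0.07 (adjusted p = 0.352) and 0.05 (adjusted p = 0.571), Dmp1KO/Fgf23cKO stayed higher than WT (0.25, adjusted p = 0.00299), and it was also higher than Dmp1KO (0.18, adjusted p = 0.0306). The interaction of -0.10 ± 0.07 (adjusted p = 0.286) passed without Fgf23cKO culture 3 (-0.15).

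Macrophage-like Igf1r was 44.8, 54.4 and 51.8 CPM in WT, 49.1, 49.2 and 41.95 CPM in Fgf23cKO, 72.5 and 73.0 CPM in Dmp1KO and 61.2, 58.5 and 64.6 CPM in Dmp1KO/Fgf23cKO cultures. The Dmp1KO cultures were highest and those of Dmp1KO/Fgf23cKO next, without overlap. Igf1r was higher than WT in Dmp1KO (0.48 ± 0.09, adjusted p = 0.00019) and in Dmp1KO/Fgf23cKO (0.21 ± 0.07, adjusted p = 0.0199; lost without WT culture 1 at 0.14), and lower in Dmp1KO/Fgf23cKO than in Dmp1KO (-0.27 ± 0.08, adjusted p = 0.0255; lost without either Dmp1KO culture at -0.28 and -0.26). Fgf23cKO was at -0.17 ± 0.08 from WT (adjusted p = 0.107), a difference that passed without Fgf23cKO culture 1 or 2 or WT culture 1 (-0.23 to -0.20). Within cluster 0 alone the Dmp1KO and Dmp1KO/Fgf23cKO changes turned to -0.36 and -0.64, neither of which passed, and the Fgf23cKO change to -0.96, which did (adjusted p = 0.0326), with 9 to 21 Igf1r UMIs per WT culture there (52.1 to 184.6 CPM). Without cluster 7 Dmp1KO stayed higher than WT (0.39, adjusted p = 0.000328) and Dmp1KO/Fgf23cKO was not called (0.10, adjusted p = 0.189), and over all macrophage marker clusters neither was called (0.09 and 0.12, adjusted p = 0.486 and 0.345). Igf1r in Fgf23cKO was lower than WT in both settings (-0.22, adjusted p = 0.0185, and -0.37, adjusted p = 0.0153).

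Macrophage-like Igfbp4 was 416, 458.5 and 455.5 CPM in WT, 454, 458 and 363 CPM in Fgf23cKO, 394 and 416.5 CPM in Dmp1KO and 412, 410.2 and 398 CPM in Dmp1KO/Fgf23cKO cultures. These overlap. The change in Dmp1KO compared with WT was -0.16 ± 0.08 (adjusted p = 0.1203; it passed without WT culture 1, Fgf23cKO culture 2 or Fgf23cKO culture 3, at -0.21 to -0.16), and the call in Dmp1KO/Fgf23cKO (-0.18 ± 0.07, adjusted p = 0.0433) was lost without Dmp1KO/Fgf23cKO culture 3 or WT culture 2 or 3 (-0.16 each) and was -0.01 in cluster 0. Without cluster 7, Igfbp4 was lower than WT in all 3 genotypes, at -0.31 in Dmp1KO (adjusted p = 0.000287), -0.19 in Fgf23cKO (adjusted p = 0.0086) and -0.38 in Dmp1KO/Fgf23cKO (adjusted p = 3.93e-06). The -0.10 ± 0.07 of Fgf23cKO passed without Fgf23cKO culture 2 (-0.18). When all macrophage marker clusters were summed, Igfbp4 was at -1.78 in Dmp1KO compared with WT (adjusted p = 2.57e-07) and at 1.43 in Dmp1KO/Fgf23cKO compared with Dmp1KO. In cluster 7, where it was low, Igfbp4 was lower than in WT in all 3 genotypes (-1.28, -0.76 and -0.82 in Dmp1KO, Fgf23cKO and Dmp1KO/Fgf23cKO, with adjusted p of 0.0127 to 0.0233).

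The remaining calls in macrophage-like cells concern genes at 0.333 to 5.47 CPM. Igfbp7 was higher than WT in Fgf23cKO (1.60 ± 0.36, adjusted p = 0.00163) and Dmp1KO/Fgf23cKO (1.72 ± 0.33, adjusted p = 0.000235), from 0.719 CPM to 2.23 and 2.42 CPM, and Pappa likewise (1.34 ± 0.59, adjusted p = 0.0793, lost without Fgf23cKO culture 2 or 3 or any WT culture at 1.201 to 1.38; and 1.94 ± 0.50, adjusted p = 0.00316), from 0.333 CPM to 0.878 and 1.41 CPM. In these 2 genotypes the stromal markers in macrophage-like cells also had the higher median ratios, 0.0064 and 0.0081 against 0.0026 in WT. Igfbp5 was called higher in Dmp1KO than in WT (2.80 ± 0.69, adjusted p = 0.00291) and lower in Dmp1KO/Fgf23cKO than in Dmp1KO (-3.70 ± 0.68, adjusted p = 0.000603), with an interaction of -4.19 ± 1.08 (adjusted p = 0.00641), on the strength of 87 UMIs in Dmp1KO culture 3, 48 of them in 1 cell, while Dmp1KO culture 2 had 1 UMI. Without culture 3 these values were -2.08, 1.17 and 0.67, none of them called. Compared with Dmp1KO, Igfbp7 in Dmp1KO/Fgf23cKO (0.88 ± 0.36, adjusted p = 0.106) passed without Fgf23cKO or WT culture 3 (0.88 and 0.89), and Pappa (0.80 ± 0.53) without Dmp1KO/Fgf23cKO culture 1 (1.18).

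Pre-osteoblast 1-like cells were, pooled over genotypes, the main source of Pappa, Igfbp7 and Igfbp5. Igfbp5 was called lower than WT in Dmp1KO and Fgf23cKO, and Pappa higher in Dmp1KO and Dmp1KO/Fgf23cKO. Each of these calls was lost without single cultures. With all cultures, Igfbp4, Igfbp7, Igf1r and both ligands did not pass in any comparison. All 11 cultures held 14 to 44 of these cells. Of 8 members tested (all but Igfbp3), 1 was higher and 1 lower in Dmp1KO than in WT (12.2% of 11666 genes called, 5.95% higher and 6.29% lower), 1 was lower in Fgf23cKO (11.7% called, 6% higher and 5.74% lower), 1 was higher in Dmp1KO/Fgf23cKO (15.9% called, 7.75% higher and 8.13% lower) and 1 was positive in the interaction (6.14% called, 2.88% positive and 3.26% negative). Between Dmp1KO/Fgf23cKO and Dmp1KO 0 members were called (0.969% of genes, 0.523% higher and 0.446% lower), where edgeR found 1660 genes at an unadjusted p under 0.05 and DESeq2 called no member either.

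Pre-osteoblast 1-like Igfbp5 was 671, 800.0 and 250.3 CPM in WT, 283, 132 and 42.3 CPM in Fgf23cKO, 46.4 and 63.9 CPM in Dmp1KO and 162, 309 and 72.0 CPM in Dmp1KO/Fgf23cKO cultures. Both Dmp1KO cultures lay below all WT cultures, whereas Fgf23cKO culture 1 and Dmp1KO/Fgf23cKO culture 2 reached the range of WT. Few cells carried these counts: 735 of the 764 UMIs in Fgf23cKO culture 1 and 710 of the 987 in Dmp1KO/Fgf23cKO culture 2 lay in 1 cell, while in WT 9 to 19 cells per culture had a UMI and the highest cell held 248 of 482. Igfbp5 was lower than WT in Dmp1KO (-3.33 ± 0.78, adjusted p = 0.0241; lost without Dmp1KO culture 2 at -3.11 or culture 3 at -3.60) and in Fgf23cKO (-1.84 ± 0.61, adjusted p = 0.0952; lost without either Dmp1KO culture, Dmp1KO/Fgf23cKO culture 1, Fgf23cKO culture 2 or 3, or WT culture 1 or 2, at -1.84 to -1.41). In Dmp1KO/Fgf23cKO it was at -1.66 ± 0.60 (adjusted p = 0.106; it passed without Fgf23cKO culture 1 or 3, WT culture 3 or Dmp1KO/Fgf23cKO culture 2, at -2.29 to -1.66). The interaction of 3.51 ± 0.96 (adjusted p = 0.0717) was lost without either Dmp1KO culture, Dmp1KO/Fgf23cKO culture 2, Fgf23cKO culture 2, or WT culture 1 or 2 (2.89 to 3.78).

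Pre-osteoblast 1-like Pappa was 498, 366 and 479 CPM in WT, 463, 998.6 and 649 CPM in Fgf23cKO, 916 and 678 CPM in Dmp1KO and 819, 797.5 and 1043 CPM in Dmp1KO/Fgf23cKO cultures. All cultures of both Dmp1-null genotypes lay above all WT cultures. Pappa was carried by most cells of the class, by 28 of 36 in WT culture 1 and by 30 of 30 in Dmp1KO/Fgf23cKO culture 1. The log2 fold change was 0.95 ± 0.25 in Dmp1KO/Fgf23cKO (adjusted p = 0.0349; lost without Dmp1KO/Fgf23cKO culture 3 or WT culture 2, at 0.82 each) and 0.83 ± 0.28 in Dmp1KO (adjusted p = 0.0940; lost in 9 of the 11 sets that leave out a culture, 0.61 to 1.03). Fgf23cKO was at 0.67 ± 0.25 (adjusted p = 0.138; it passed without Fgf23cKO culture 1 at 0.90). Of the others, Igfbp4 was 480 to 1089 CPM in WT, 359.6 to 1002 CPM in Fgf23cKO, 386 and 502 CPM in Dmp1KO and 867 to 899 CPM in Dmp1KO/Fgf23cKO, with values of -0.80 ± 0.39 in Dmp1KO compared with WT (adjusted p = 0.239) and 0.96 ± 0.38 in Dmp1KO/Fgf23cKO compared with Dmp1KO (adjusted p = 0.281). Without Fgf23cKO culture 2, the first passed at -0.80 and so did its interaction at 1.77. Igf1r was 182.5 CPM in each Dmp1KO culture and 193 to 257.5 CPM elsewhere (-0.31 ± 0.15 compared with WT, adjusted p = 0.230), and Igfbp7 was 277 to 666.5 CPM with all genotypes overlapping.

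Osteoprogenitor-like cells had less Igfbp5 in both genotypes with Dmp1-cre than in WT. Igfbp4 was called lower than WT in both Dmp1-null genotypes, and each call was lost without single cultures. In Fgf23cKO Igfbp4 was not called, but its cultures too lay below every WT culture. Of 6 members tested (Igf1, Igf1r, Igfbp4, Igfbp5, Igfbp7 and Pappa), 1 was lower in Dmp1KO than in WT (11.7% of 4870 genes called, 8.01% higher and 3.66% lower), 1 was lower in Fgf23cKO (18.1% called, 10.8% higher and 7.29% lower) and 2 were lower in Dmp1KO/Fgf23cKO (23.6% called, 14.2% higher and 9.32% lower). No member, 0 of 6, was called between Dmp1KO/Fgf23cKO and Dmp1KO (1.93% of genes, 1.56% higher and 0.37% lower) or in the interaction (3.94%, 1.11% positive and 2.83% negative), where edgeR found 600 and 818 genes at an unadjusted p under 0.05 and DESeq2 called no member. These cells were shallow, with a median of 2834 UMIs, and each culture held 17 to 65 of them. Macrophage markers in them moved with genotype, at a median of 0.283 of their macrophage-like level in WT and 0.123 to 0.140 in the other genotypes, and their part in the results below was not tested.

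Osteoprogenitor-like Igfbp4 was 1107, 1749 and 1028 CPM in WT, 787.5, 241 and 702 CPM in Fgf23cKO, 441.5 and 384 CPM in Dmp1KO and 369, 496 and 512 CPM in Dmp1KO/Fgf23cKO cultures. Every WT culture lay above every other culture. It was lower than WT in Dmp1KO (-1.26 ± 0.38, adjusted p = 0.0541; lost without Dmp1KO culture 2 at -1.16, Dmp1KO culture 3 at -1.18 or WT culture 2 at -1.04) and in Dmp1KO/Fgf23cKO (-0.93 ± 0.33, adjusted p = 0.0614; lost without either Dmp1KO culture, Dmp1KO/Fgf23cKO culture 1 or 2, or WT culture 2, at -1.05 to -0.73), and at -0.73 ± 0.33 in Fgf23cKO (adjusted p = 0.152; it passed without Fgf23cKO culture 1 at -1.03). Igfbp5 in these cells was 217, 809 and 886 CPM in WT, 71.3, 30.1 and 182 CPM in Fgf23cKO, 161.5 and 283 CPM in Dmp1KO and 69.0, 121 and 25.04 CPM in Dmp1KO/Fgf23cKO cultures, from 3 to 100 UMIs per culture. Both Cre genotypes lay below WT, at -2.25 ± 0.58 (adjusted p = 0.0207) and -2.57 ± 0.57 (adjusted p = 0.00634). Without TMM factors, the median member tested in this class moves by -0.42 to -0.60 against WT, so these changes are relative to that shift. Igf1 in Fgf23cKO (-1.50 ± 0.63, adjusted p = 0.130) passed without Fgf23cKO culture 1 (-3.16) or Dmp1KO/Fgf23cKO culture 2 (-1.55), and Igfbp7 in Dmp1KO/Fgf23cKO (0.92 ± 0.42, adjusted p = 0.143) passed without Fgf23cKO culture 2 (0.94).

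Osteoblast/osteocyte-like cells could be compared between Dmp1KO/Fgf23cKO and WT alone, since the Dmp1KO cultures held 2 and 8 of them and the Fgf23cKO cultures 16, 7 and 5. Igfbp7 and Igf1r were higher in Dmp1KO/Fgf23cKO, 2 of 6 members tested against 13.6% of 8582 genes called (6.53% higher, 7.12% lower). Igfbp7 was 26.4, 12.9 and 16.8 CPM in WT and 79.1, 78.1 and 113 CPM in Dmp1KO/Fgf23cKO cultures, without overlap (2.13 ± 0.27, adjusted p = 0.00143), and its call was kept under every alternative tried for this class. It rested on 5 to 22 UMIs per WT culture. Igf1r was 115.5, 72.4 and 145 CPM in WT and 186, 189.8 and 198 CPM in Dmp1KO/Fgf23cKO cultures, also without overlap (0.61 ± 0.20, adjusted p = 0.0835), but this call was lost without any culture except WT culture 3 (0.48 to 0.65). Igf1 was 133 CPM in WT and 95.7 CPM in Dmp1KO/Fgf23cKO (-0.58 ± 0.43, adjusted p = 0.455; it passed at -1.34 without Dmp1KO/Fgf23cKO culture 1).

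A list of 34 further genes of the IGF pathway (other receptors and binding proteins, mRNA binding proteins, adaptors, PI3K and AKT kinases, and proteases and inhibitors) was examined in the same fits. Only the main fits were examined for these genes, without the alternatives and left-out cultures used for the members. In whole cultures 30 were tested: 7 were higher and 14 lower in Dmp1KO than in WT (32.5 and 32% of all genes; median log2 fold change -0.20 against -0.03 over all genes), 6 higher and 3 lower in Fgf23cKO (21.7 and 23.4% of all genes; median 0.12), 9 higher and 5 lower in Dmp1KO/Fgf23cKO (24.5 and 27.4%; median 0.07), and 17 higher and 6 lower in Dmp1KO/Fgf23cKO than in Dmp1KO (27.2 and 35.5%; median 0.28), while the interaction was called for 12 in the positive and 6 in the negative direction (25.6 and 29.8%). In macrophage-like cells 23 were tested, with 10 higher and 5 lower in Dmp1KO (26.2 and 24.9% of all genes), 12 higher and 2 lower in Fgf23cKO (24.7 and 23.4%) and 11 higher and 4 lower in Dmp1KO/Fgf23cKO (30.3 and 28.7%) than in WT, and all-gene medians of 0.00 to 0.01. In pre-osteoblast 1-like cells 28 were tested and 1 was higher and 1 lower in each genotype compared with WT, where 5.74 to 8.13% of all genes were called in each direction.

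Ide, the insulin-degrading enzyme, a protease that also cleaves IGF peptides in vitro, was lower than WT in both Dmp1-null genotypes in whole cultures, macrophage-like and pre-osteoblast 1-like cells. In pre-osteoblast 1-like cells Ide was 65.7 CPM in WT, 64.9 CPM in Fgf23cKO, 33.6 CPM in Dmp1KO and 41.7 CPM in Dmp1KO/Fgf23cKO (-0.94 ± 0.21, adjusted p = 0.0195, and -0.68 ± 0.18, adjusted p = 0.0353, compared with WT). In macrophage-like cells Ide was at -0.98 ± 0.10 in Dmp1KO and -0.84 ± 0.07 in Dmp1KO/Fgf23cKO (adjusted p = 2.49e-07 and 2.53e-08) and at 0.17 ± 0.07 in Fgf23cKO (adjusted p = 0.0712). In osteoblast/osteocyte-like cells of Dmp1KO/Fgf23cKO it was at -1.05 ± 0.19 (adjusted p = 0.00676), and in osteoprogenitor-like cells at -1.77 ± 0.54 (adjusted p = 0.0342), where Dmp1KO was at -1.33 ± 0.57 (adjusted p = 0.178). Htra1, a secreted serine protease that cleaves IGF binding proteins, was higher in pre-osteoblast 1-like cells of both Dmp1-null genotypes, at 152 and 145 CPM against 75.1 CPM in WT and 77.5 CPM in Fgf23cKO (1.07 ± 0.27, adjusted p = 0.0340, and 0.98 ± 0.25, adjusted p = 0.0290). Whether the calls for Ide and Htra1 hold without single cultures was not examined. The inhibitors of PAPP-A, Stc1 and Stc2, were low, and Stc2 was lower than WT in whole cultures of Dmp1KO (-4.19 ± 1.18, adjusted p = 0.0114) and Dmp1KO/Fgf23cKO (-2.81 ± 0.96, adjusted p = 0.0371), from 5.45 CPM to 0.249 and 0.833 CPM.

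In macrophage-like cells the insulin receptor substrate Irs2 was higher than WT in all 3 genotypes (0.58 ± 0.10, 0.66 ± 0.09 and 0.89 ± 0.08 in Dmp1KO, Fgf23cKO and Dmp1KO/Fgf23cKO), as were the PI3K regulatory subunit Pik3r1 (0.68 ± 0.08, 0.35 ± 0.07 and 0.58 ± 0.07) and the transcription factor Foxo1 (0.59 ± 0.12, 0.35 ± 0.10 and 0.41 ± 0.10). Igf2r, which takes IGF2 up for degradation, was lower in both Dmp1-null genotypes (-0.88 ± 0.13 and -0.85 ± 0.09) and higher in Fgf23cKO (0.21 ± 0.09, adjusted p = 0.0841). As for Igf1, the clusters behind these levels differ between WT and the other genotypes. In osteoprogenitor-like cells Akt1 was higher and Pik3r1 lower than WT in all 3 genotypes (Akt1 1.41 ± 0.43, 1.25 ± 0.42 and 1.43 ± 0.40; Pik3r1 -2.25 ± 0.60, -1.82 ± 0.53 and -1.68 ± 0.50, in the order used above). In osteoblast/osteocyte-like cells the adaptor gene Grb10 was higher in Dmp1KO/Fgf23cKO than in WT (0.83 ± 0.20, adjusted p = 0.0282), and Gsk3b, Pdpk1, Ide, Igf2bp2 and Pik3cb were lower.

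For each member, the genes whose level followed it most closely are listed. Likeness is the Pearson correlation of log2(CPM + 1) over 66 sums of a class in a tagged culture, among 8902 genes. Sums of a culture share their library, and the values are a description. C1qa, C1qb, C1qc, Col3a1 and Col6a3 also stood in the marker lists that named the classes, so their likeness restates the class levels. Igf1 was closest to the complement genes C1qa (0.971), C1qc (0.970) and C1qb (0.966), which are macrophage markers. Igfbp7 was closest to Inhba (0.979), Prrx2 (0.978) and Dbn1 (0.975), Pappa to Col3a1 (0.961), Nhs (0.960) and Col6a3 (0.954), and Igfbp5 to Cxcl12 (0.946), P4ha3 (0.943) and Akap12 (0.941). Igf1r was closest to Tusc3 (0.900), Wipi1 (0.882) and Gstm5 (0.875). Igfbp4, with its levels on both sides, had no such close neighbour (Zcchc24 0.789, Slc29a1 0.777 and Rac3 0.769), nor did the sparse genes Igf2 (Rab18 0.789, Lgr6 0.767, Prkg2 0.753), Igfbp6 (Rgs17 0.742, Anxa8 0.737, Cdh13 0.717) and Igfbp3 (Arl5a and Zfr 0.542, Anxa8 0.501). Among the members, Igfbp7 correlated with Igfbp5 (0.919) and Pappa (0.917), and Igf1 had negative values with these 3 (-0.719 to -0.798).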

How the data were processed

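The authors cultured, tagged (CellPlex), sorted and pooled cells by genotype, and made 3′ libraries in 1 reaction per genotype. The deposited matrices hold UMI counts for each gene and barcode, not normalized, from the authors' runs of Cell Ranger 7.0.1 per the labels. The submitters' processing notes name mm10. Intron and strand settings: not given in the sources used here. Multiplets between tags were removed by the authors, so those within a culture remain, and no doublet caller was run here. Counts of 12 tags were kept out of gene totals. Samples numbered 1 to 3 were read as tagged cultures and those numbered 4 as untagged cells of the same pool, which entered clustering but no main test. The first Dmp1KO culture, with 1935 barcodes listed, was not used here.

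Clustering used Seurat 5.3.0 with sctransform 0.4.2, run in R 4.3.3 (3000 variable genes, of which 24 IGF pathway genes were left out, 30 principal components, resolution 0.8), without a filter on cells. Clusters were named from marker lists with at least 3 detected markers and a mean scaled marker score of at least 0.3, a limit set after seeing the data, as was the grouping of macrophage marker clusters. A name also required that no other list held more of the leading genes of the cluster. Some lists, such as those of monocytes or dendritic cells and of chondrocytes, were given no class and so gave no name. A difference from the study's populations may come from these rebuilt names. For each class, UMIs were added up over the cells of every tagged culture with at least 10 such cells, and the sums were compared in edgeR 4.0.16 (glmQLFit and glmQLFTest, TMM factors, filterByExpr), with genotypes fitted together and p values adjusted by the Benjamini-Hochberg method over all genes tested, with a threshold of 0.1. The study names 3 individual cultures per genotype without saying that each came from another mouse, so p values measure the spread between cultures, which may be technical. Thinning drew 1300 UMIs per cell. All 9 members are named in every class. Of 34 other IGF pathway genes, those past the threshold could be named, and the interaction is given for these as counts. Not every gene past the threshold is reported here. The members, lists and alternatives were chosen with earlier results of these data known.

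On simulated counts with 200.0 genes changed 4-fold between Dmp1KO and WT, 93.5% were recovered in whole cultures (14915 genes), 89.0% in macrophage-like (12374 genes), 69.5% in osteoprogenitor-like (4233 genes) and 82.0% in pre-osteoblast 1-like cells (11420 genes), and 6.71 to 8.89% of calls were false. Between Dmp1KO/Fgf23cKO and WT, 89.5% were recovered in osteoblast/osteocyte-like cells (8570 genes). The simulation gave all genes the same fixed spread and, apart from the changed genes, all genotypes the same mean levels. In the data genotypes differ at many more genes and single cells carry some counts, so these rates need not hold there. Alternatives were DESeq2 1.42.0, RLE factors, no filter on low counts, an adjusted p under 0.05, at least 20 cells per sum, a filter on cells (500 genes, 20% mitochondrial UMIs), resolution 1.2, IGF genes kept in clustering, untagged samples added, thinned cells, the replicate number as a block and each culture left out. With 1 Dmp1KO culture left out, the other is assumed to vary like the cultures of the other genotypes. Single clusters, the macrophage-like class without cluster 7, all macrophage marker clusters and no TMM factors were added after seeing the data.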

Additional observations from a re-analysis of the deposited data

Results flagged for a closer look

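For Igfbp4 and Igfbp5 in whole cultures, the difference between genotypes with and without Dmp1-cre was not the same in Dmp1-/- as in Dmp1+/+ cultures (interaction, edgeR). Deletion of Fgf23, presence of Cre and droplet reaction cannot be told apart in this test. The interaction was 1.69 on the log2 scale for Igfbp4 (1.36 in Dmp1-/- against -0.33 in Dmp1+/+ cultures). For Igfbp5 it was 2.34 (2.28 against -0.07). Both calls were kept with each culture left out in turn. Of all genes tested in whole cultures, 55.4% had a called interaction. In the untagged cells, single values given below, Igfbp5 was not higher in Dmp1KO/Fgf23cKO than in Dmp1KO. The share of UMIs in the other macrophage marker clusters and the cells of cluster 18 moved with these results, and their part was not tested.

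Igfbp5 was also singled out by this test in pre-osteoblast 1-like cells (3.51), where the call was lost without any of 6 cultures and 710 of 987 UMIs of Dmp1KO/Fgf23cKO culture 2 lay in 1 cell. In macrophage-like cells the value for Igfbp5 was -4.19, and it was 0.67 and not called without Dmp1KO culture 3, where 48 of 87 UMIs lay in 1 cell.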

How the results depend on the processing

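Depth limits Igf2, Igfbp3 and Igfbp6, and class sums rest on few stromal cells. Of 151 values, 150 kept their side of the threshold and direction with the filter on cells, 146 with RLE factors, 142 with DESeq2, 141 without TMM factors, 139 at an adjusted p under 0.05, 130 with no filter on low counts (1 lost and 20 gained a call) and 129 with untagged samples added (9 lost and 13 gained). Pairing by replicate number was looked for with deviations from the genotype means. These correlated at -0.491 to 0.393 (median -0.0908) for 15 pairs of equal number and at -0.589 to 0.562 (median 0.0984) for 30 other pairs. Deviations of the cultures of a genotype offset each other, so the pairs are not independent and the check cannot decide whether cultures were paired. The replicate block changed 5 of 151: members called fell to 1 in pre-osteoblast 1-like cells of Dmp1KO and to 2 in whole cultures of Fgf23cKO, and came to 2 in pre-osteoblast 1-like cells of Dmp1KO/Fgf23cKO, each compared with WT. Numbers of members called are given below in the order Dmp1KO, Fgf23cKO and Dmp1KO/Fgf23cKO compared with WT, Dmp1KO/Fgf23cKO compared with Dmp1KO, and interaction, unless a comparison is named. The cause of these changes was not tested.

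Leaving out each culture in turn gave 4 to 5, 1 to 4, 4 to 6, 4 to 6 and 2 to 4 in whole cultures, 2 to 4, 2 to 4, 3 to 5, 0 to 3 and 0 to 2 in macrophage-like cells, 0 to 1, 1 to 3, 1 to 3, 0 and 0 in osteoprogenitor-like cells, 0 to 3, 0 to 2, 0 to 2, 0 and 0 to 1 in pre-osteoblast 1-like cells, and 1 to 2 in osteoblast/osteocyte-like cells. The log2 ratio of stromal to macrophage-like levels ranged from -4.00 to -3.85 for Igf1, 1.67 to 1.79 for Igf1r, 2.08 to 2.57 for Igf2, 0.42 to 0.59 for Igfbp3, 0.14 to 0.28 for Igfbp4, 5.70 to 6.24 for Igfbp5, 1.41 to 1.63 for Igfbp6, 6.78 to 6.91 for Igfbp7 and 7.77 to 7.92 for Pappa. Thinned cells gave 1.14 for Igf1r, 7.37 for Igfbp7 and 7.17 for Pappa, where all counts gave 1.73, 6.84 and 7.86. The other members moved by less than the SD over cultures. With thinning Igfbp4 went from 0.19 to 0.63, above its left-out range, Igfbp5 from 5.93 to 6.53 and Igfbp6 from 1.55 to 0.98. Igfbp3 went from 0.53 to 0.27, Igf1 from -3.92 to -3.79 and Igf2 from 2.34 to 2.38.

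In macrophage-like cells, Dmp1KO compared with WT had 5 members called with IGF genes kept in clustering, at resolution 1.2, with untagged samples or without cluster 7, 0 in cluster 0 and 1 in cluster 7. Fgf23cKO had 5 with IGF genes kept or no filter on low counts and 1 in cluster 0 or 7, and Dmp1KO/Fgf23cKO had 1 in cluster 0 and 2 in cluster 7. Dmp1KO/Fgf23cKO compared with Dmp1KO had 5 over all macrophage marker clusters and 0 in cluster 7, and the interaction had 4 over all of them, 3 at resolution 1.2, 2 without cluster 7 and 0 in cluster 0 or 7. Values that changed sign were Igf1 in cluster 7 (-0.28, -0.18 and -0.49 compared with WT), Igf1r in cluster 0 (-0.36 in Dmp1KO and -0.64 in Dmp1KO/Fgf23cKO) and cluster 7 (-0.27 in Dmp1KO/Fgf23cKO), Igf1r over all macrophage marker clusters (0.033 compared with Dmp1KO and 0.40 in the interaction), Igfbp4 compared with Dmp1KO (1.43 over all of them and 0.33 at resolution 1.2) and Igfbp5 without Dmp1KO culture 3 (-2.08, 1.17 and 0.67; with each culture left out in turn the values ran from -2.08 to 3.62 in Dmp1KO compared with WT, from -4.52 to 1.17 in Dmp1KO/Fgf23cKO compared with Dmp1KO and from -5.02 to 0.67 in the interaction). In whole cultures Igf1 turned to 0.17 without TMM factors (Dmp1KO/Fgf23cKO compared with Dmp1KO).

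In whole cultures, Fgf23cKO had 1 member called at an adjusted p under 0.05 and 2 with untagged samples, Dmp1KO/Fgf23cKO compared with Dmp1KO had 3 with untagged samples, and the interaction had 5 without TMM factors. In osteoprogenitor-like cells Dmp1KO had 0 at the stricter threshold and 3 with untagged samples, Dmp1KO/Fgf23cKO had 1 at the stricter threshold, and Fgf23cKO had 3 with DESeq2 or no TMM factors and 2 with IGF genes kept, RLE factors, no filter on low counts, resolution 1.2 or untagged samples. Dmp1KO/Fgf23cKO compared with Dmp1KO had 1 with no filter and the interaction 1 with untagged samples. In pre-osteoblast 1-like cells Dmp1KO had 1 with RLE factors or the stricter threshold. Fgf23cKO had 0 at the stricter threshold, 4 with no filter and 2 with untagged samples, and Dmp1KO/Fgf23cKO had 2 with at least 20 cells, no filter or untagged samples. Compared with Dmp1KO it had 3 with no filter and 1 with untagged samples, and the interaction had 0 at the stricter threshold, 5 with no filter and 2 with untagged samples. In osteoblast/osteocyte-like cells 1 was called with DESeq2, the stricter threshold, the filter on cells or untagged samples, and 4 with no filter.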

Other observations

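Untagged cells of each pool, which are a single value per genotype and were not tested, gave whole-sample Igf1 levels of 912 CPM in WT, 1161 CPM in Fgf23cKO, 1097 CPM in Dmp1KO and 1308 CPM in Dmp1KO/Fgf23cKO. Igfbp4 was 411, 402, 154 and 484 CPM in the same order, and Pappa was 77.5, 123.1, 93.5 and 179.6 CPM. Igfbp5 was 190.4 CPM in untagged WT cells against 25.1, 29.1 and 25.3 CPM in the others.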
